A study of Rattus norvegicus with 12 samples.

Results

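The transcriptome of injured rat urethra treated with a tetrahedral DNA nanostructure (TDN) was compared with that of sham tissue. The comparison used the 3 TDN libraries and the 3 sham libraries, which are 6 of the 12 labelled libraries of the series. They were chosen by their treatment labels. The choice to fit these 6 alone was made with earlier results of these data known. All animals were male rats, and the material was urethral tissue. Sham rats had no urethral injury. TDN rats had a mechanical urethral injury and then received TDN. The other libraries, 3 from injured urethra labelled with no further treatment and 3 from injured urethra with rapamycin, an inhibitor of the mTOR kinase, were used only to place the TDN levels. Strain, age, dose, route and time of harvest are not given in the labels. Whether the sham or injury groups received vehicle is not stated. Nor is it stated that each library stands for its own animal. The p-values therefore set a group difference against the spread among these libraries only, and that spread may be technical.

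The urethra is a tube lined by urothelium and surrounded by vascular connective tissue, smooth muscle and, at the sphincter, striated muscle. After mechanical injury the tissue goes through inflammation, closure of the epithelium and deposition of collagen-rich matrix, and a contracted scar narrows the lumen, which is known as a stricture. TDN is a tetrahedral particle that assembles from short synthetic DNA strands and enters many cell types without a transfection agent. The comparison with sham asks how far the treated tissue stood from uninjured urethra.

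Whole-number counts were given for 32623 Ensembl gene IDs, and total counts over the 12 libraries ran from 44765817 to 55928721. Counts were found for 18989 to 19254 genes in the sham libraries and for 18965 to 19182 genes in the TDN libraries. The IDs are not paired with gene symbols in the file. The gene table used for names held no Ensembl IDs, so 0 of these IDs could be matched. Genes are therefore described here as groups, by level, direction and size of change, with 4 of them given by ID. For the same reason neither the labelled tissue nor the makeup of its cell types was checked against marker genes. In bulk tissue such as this, a change in the number of cells of a type and a change in RNA per cell cannot be told apart.

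More genes were called higher than lower in TDN-treated tissue, and the called increases were larger. Of the 16894 genes tested in the 6 libraries, 617 were higher and 376 were lower in TDN than in sham (quasi-likelihood test of edgeR, adjusted p under 0.05 by Benjamini and Hochberg). These are 3.65% and 2.23% of the tested genes, 5.88% together. The median log2 fold change was 1.39 for the genes that rose and -0.76 for those that fell, beside -0.01 over all tested genes. Because the genes were selected on these same libraries, their medians are larger than those of an unselected set. Without adjustment, 2281 genes (13.5%) were higher and 2120 (12.5%) lower at p under 0.05. This balance turned with total count scaling (1876 higher, 2245 lower) and with a weight per group over 12 libraries (2090 and 2290, limma voom). It also turned with no filter on low counts (2266 and 2274) and without TDN replicate 1 (1764 and 1875). In the same order, the calls kept more higher than lower genes (549 and 336, 906 and 665, 406 and 241, 135 and 55). All 617 and all 376 called genes had sham and TDN libraries that did not overlap, as did 15.9% of tested genes in the higher and 17.4% in the lower direction.

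These counts rest on the spread within sham and TDN alone. Expression is given in CPM, counts scaled to library size, and the median SD of log2 CPM was 0.168 for sham, 0.179 for TDN, 0.499 for injury and 0.756 for rapamycin (tested genes). When all 12 libraries shared 1 estimate of the spread, the edgeR count was 0 (smallest adjusted p = 0.0658), and 688 higher and 242 lower genes had p under 0.05 before adjustment. DESeq2 on the 6 libraries called 1521 higher and 1256 lower. Left out in turn, sham replicates 1 to 3 gave 261, 11 and 582 genes higher and 174, 2 and 227 lower. TDN replicates 1 to 3 left out gave 135, 260 and 255 higher and 55, 116 and 123 lower.

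**Figure D1:**
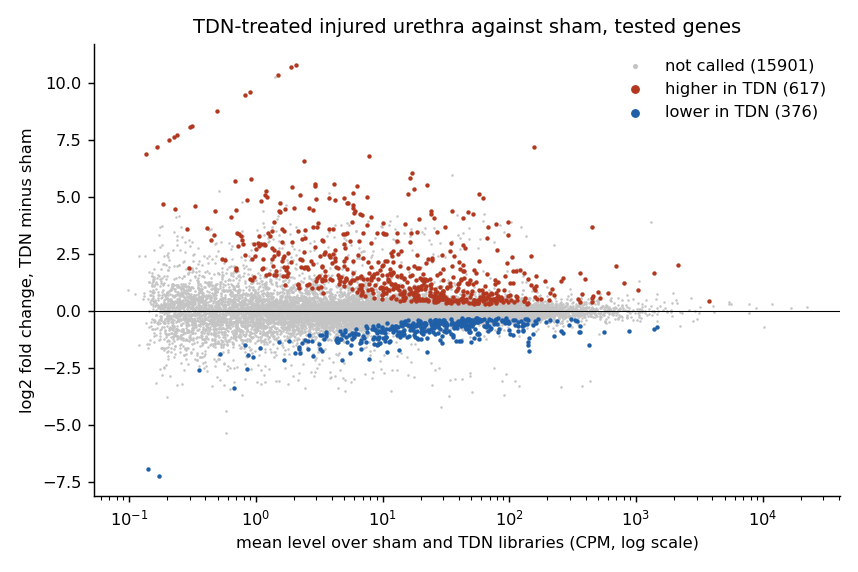
Each point is 1 tested gene, with its mean level over the sham and TDN libraries (CPM, log scale) on the horizontal axis and its log2 fold change (TDN minus sham) on the vertical axis. The 617 genes called higher reach much larger differences than the 376 called lower, and many genes with large negative values are not called. Fitted values of genes without a count in 1 group depend on the prior count of the fit, and among called genes with counts in both groups the largest were 7.22 higher and 3.36 lower on the log2 scale.

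The size of the change differed between directions. Of the 617 genes that rose, 397 rose at least 2-fold, 207 at least 4-fold and 124 at least 8-fold. Of the 376 genes that fell, 115 fell at least 2-fold, 9 at least 4-fold and 1 at least 8-fold. In these counts a gene without a count in 1 of the groups was taken at its lower bound, set by a floor of 3 counts per library. As shares, 64.3% of the higher genes and 30.6% of the lower genes passed a 2-fold difference. When the test itself asked for more than a 2-fold difference (edgeR glmTreat), 25 genes were higher and 0 were lower, while 546 and 115 had p under 0.05 before adjustment. Means at least 4-fold lower in TDN were more frequent than the 9 calls, at 139 genes, and for 97 of these the sham and TDN libraries overlapped.

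The genes that rose had lower sham levels than those that fell, while in TDN the order turned. Part of the gap in sham follows from choosing the genes by direction on these same libraries. In sham, the genes that rose had a median of 7.59 CPM (quartiles 1.12 and 26.9), and in TDN 21.0 CPM (quartiles 6.65 and 57.1). Genes that fell started from a median of 30.1 CPM in sham (quartiles 13.6 and 62.9) and 18.2 CPM in TDN (quartiles 6.48 and 40.9). Over all tested genes the median level in the 6 libraries was 15.9 CPM. Of the genes that rose, 146 lay under 1 CPM in sham, and 39 of these were at 5 CPM or more in TDN.

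By mean level over the 6 libraries, genes of 1 to 10 CPM were called most often as higher, 210 of 4635 or 4.53%, against 84 or 1.81% called lower. Between 10 and 100 CPM, 3.81% were higher and 2.89% lower, and at 100 CPM and over 3.02% were higher and 2.58% lower. Under 1 CPM 41 genes were higher and 9 lower out of 2277, so higher calls outnumbered lower ones most among genes of low level. The precision changed along the same scale, with a median standard error of the log2 fold change of 0.515 under 1 CPM, 0.254 from 1 to 10 CPM, 0.110 from 10 to 100 CPM and 0.102 above. A called gene of low level therefore had a larger fitted difference, with a median of 3.62 for the higher genes under 1 CPM (3.13 with bounds) and 0.87 for those at 100 CPM and over.

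**Figure D2:**
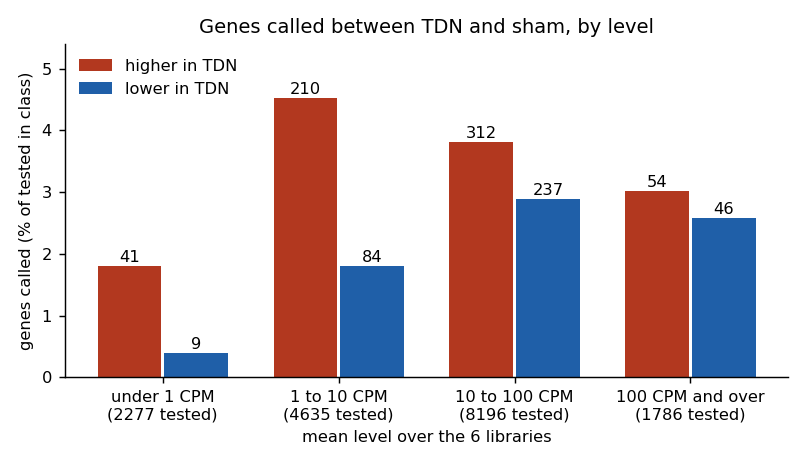
Bars give the percent of tested genes called higher or lower in TDN than in sham, by mean level over the 6 libraries in CPM, with the number of genes above each bar. Higher genes are 4.53% of the class from 1 to 10 CPM and lower genes 1.81%, while the bars at 100 CPM and over are 3.02% and 2.58%.

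Among the genes that rose, 13 had no count in any sham library and a count in all 3 TDN libraries. Their TDN means ran from 0.271 to 4.13 CPM. Against a floor of 3 counts per sham library, which is 0.0542 CPM on average, they were at least 5-fold to at least 76.2-fold higher in TDN. With these genes set at their bound, the median log2 fold change of the genes that rose stayed at 1.39. All 3 injury libraries held counts for 8 of the 13, and all 3 rapamycin libraries also for 8. Conversely, 2 genes that fell had no count in the TDN libraries and were at least 5.13-fold and at least 6.2-fold lower than in sham.

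ENSRNOG00000002548 and ENSRNOG00000019050 had the largest increases among the 490 genes that rose, reached 5 CPM in TDN and did not overlap between the groups. ENSRNOG00000002548 was at 0.457, 2.94 and 2.96 CPM in the sham libraries and at 453, 146 and 334 CPM in the TDN libraries. The groups lay far apart, with a log2 fold change of 7.22 (SE 0.807, edgeR adjusted p = 0.0118), which is 149-fold. In injury it was at 314, 301 and 16.0 CPM, and in rapamycin at 1360, 403 and 508 CPM. Injury replicates 1 and 2 were thus within the TDN range, replicate 3 was below it and above sham, and of the rapamycin libraries replicate 1 and replicate 3 exceeded every TDN library.

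ENSRNOG00000019050 was nearly undetected in sham, at 0.0732, 0.123 and 0.220 CPM from 4, 7 and 12 counts. The TDN libraries held 13.1, 9.47 and 24.3 CPM, a log2 fold change of 6.82 (SE 0.537, edgeR adjusted p = 0.00687) or 113-fold. In injury it was at 4.66 and 25.1 CPM in replicates 1 and 2 and had 0 counts in replicate 3, and in rapamycin it was at 61.5, 18.6 and 2.19 CPM. The SD was 7.76 CPM in TDN, 13.4 CPM in injury and 30.6 CPM in rapamycin (n = 3 each), and both other injured groups overlapped with TDN.

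ENSRNOG00000017686 and ENSRNOG00000025005 had the largest decreases among the 344 genes that fell, reached 5 CPM in sham and did not overlap. ENSRNOG00000017686 was at 5.85, 8.41 and 9.16 CPM in sham and at 1.67, 1.71 and 1.75 CPM in TDN, where the replicates were almost equal. It fell by 2.17 on the log2 scale (SE 0.212, edgeR adjusted p = 0.0096), which is 4.49-fold. Injury replicates 1 and 2 lay below TDN at 0.157 and 0.173 CPM, and replicate 3 lay above it at 3.48 CPM. All rapamycin libraries lay below TDN, at 0.357, 0.338 and 1.24 CPM.

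ENSRNOG00000025005 was at 11.4, 12.9 and 13.6 CPM in sham and at 3.07, 3.39 and 2.24 CPM in TDN. It fell by 2.10 on the log2 scale (SE 0.190, edgeR adjusted p = 0.00913), or 4.28-fold. The injury libraries, at 1.96, 2.06 and 3.44 CPM, and the rapamycin libraries, at 4.81, 0.541 and 1.75 CPM, overlapped with TDN and stayed below sham. Every one of the 4 genes lost its call when sham replicate 2 was left out (edgeR adjusted p = 0.0614 to 0.0673), when all 12 libraries shared the spread (0.127 to 0.974), and in the fit of 9 libraries without rapamycin (0.0657 to 0.612). ENSRNOG00000017686 and ENSRNOG00000025005 also lost it when a difference of more than 2-fold was asked for (edgeR glmTreat adjusted p = 0.0625 for both).

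**Figure D3:**
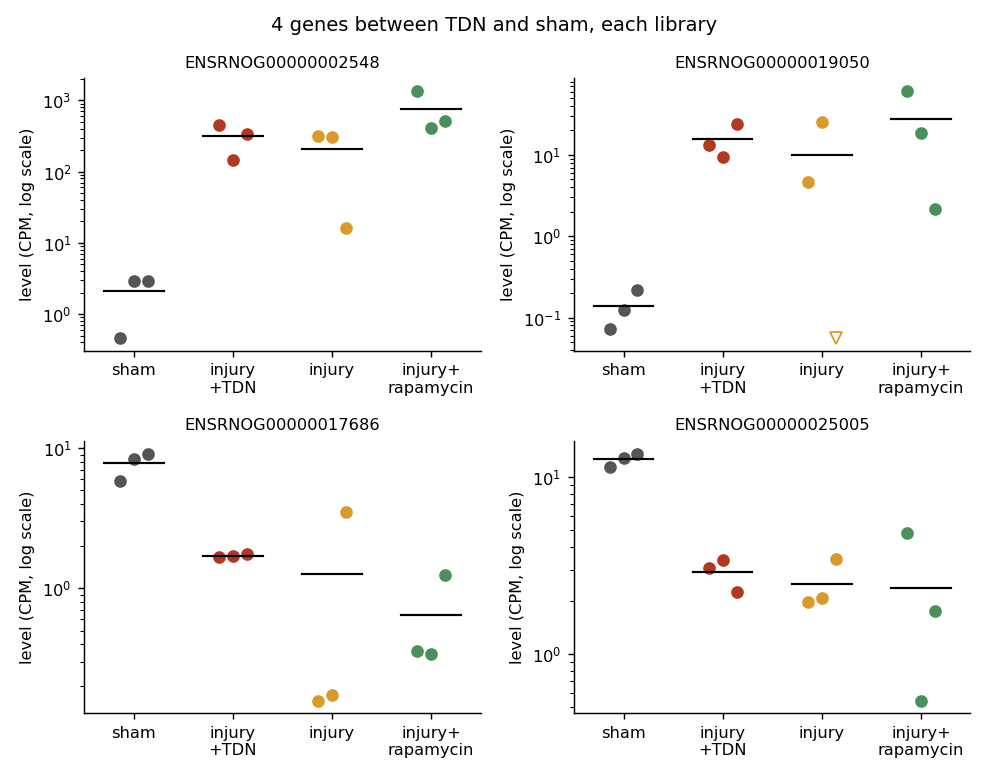
Levels of 4 genes in each library (CPM, log scale), with 1 point per library and a line at the mean of each group of 3. The open triangle marks an injury library with 0 counts of ENSRNOG00000019050, drawn at the level that 3 counts would give. TDN and sham do not overlap for any of the 4 genes, whereas the injury libraries are spread widely for all but ENSRNOG00000025005.

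For these genes the level in TDN was not shown to differ from that in untreated injury. The log2 difference between TDN and injury was 0.56 (SE 0.946) for ENSRNOG00000002548, 0.66 (SE 1.47) for ENSRNOG00000019050, 0.43 (SE 0.991) for ENSRNOG00000017686 and 0.22 (SE 0.598) for ENSRNOG00000025005. The edgeR adjusted p was 0.799, 0.850, 0.856 and 0.876 in the same order, in a fit of all 12 libraries. These differences moved with single libraries and fits. Over 9 alternatives they ran from 0.02 to 1.29 for ENSRNOG00000002548, the lowest without injury replicate 3, and from 0.07 to 3.88 for ENSRNOG00000019050, at 0.07 without injury replicate 3 and 2.71 without injury replicate 2. For ENSRNOG00000017686 they were 3.35 without injury replicate 3 and -0.10 or -0.09 without injury replicate 1 or 2, and for ENSRNOG00000025005 they ran from 0.08 without injury replicate 1 to 0.53 without injury replicate 3. None passed (edgeR or limma adjusted p = 0.126 to 0.994).

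The called genes were then followed in each library. They were selected on the sham and TDN libraries by a test that favours a small spread within each group, so likeness among the TDN libraries in these lists is no result. For the 617 genes that rose, the median log2 difference from the sham mean was 1.53, 1.29 and 1.28 in TDN replicates 1 to 3, and for the 376 that fell it was -0.78, -0.72 and -0.77. TDN replicate 1 was the farthest from sham of the 3 for 338 of the 617 and for 166 of the 376. Injury took no part in choosing these genes, though it is compared here with the same sham libraries. The injury libraries had medians of 2.03, 1.65 and 1.27 for the genes that rose in TDN and -2.25, -1.74 and -0.69 for the genes that fell. Rapamycin libraries had 1.77, 2.22 and 1.51, and -1.83, -3.01 and -1.16. Injury replicate 3 thus lay close to the TDN libraries in both lists, while injury replicates 1 and 2 lay farther from sham.

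**Figure D4:**
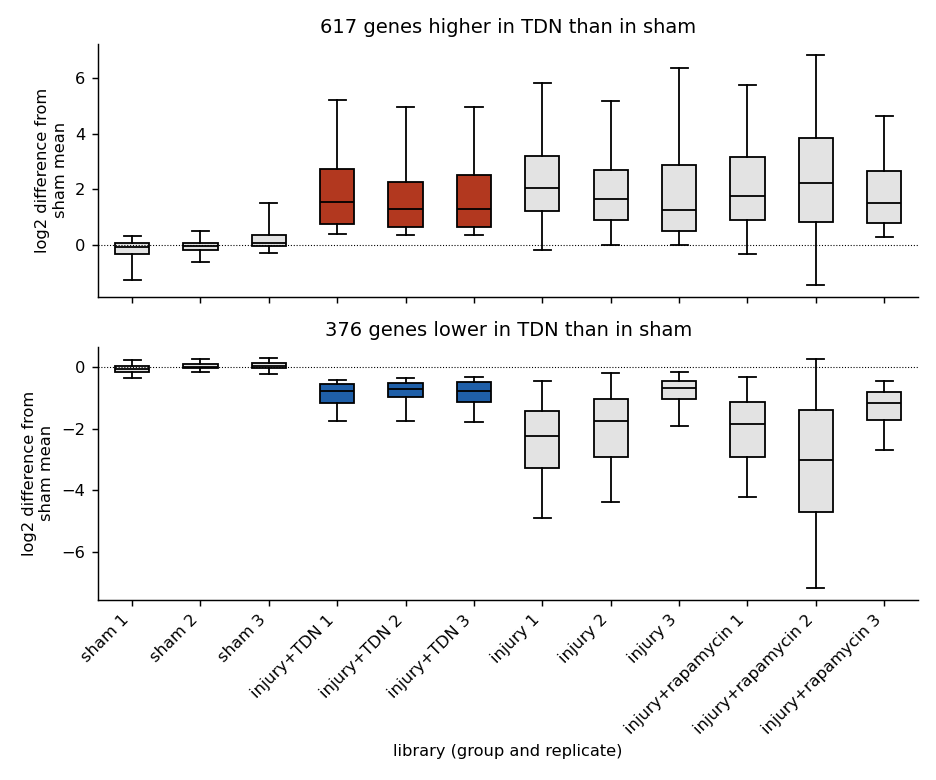
Log2 difference from the sham mean in each of the 12 libraries, for the 617 genes higher (top) and the 376 genes lower (bottom) in TDN than in sham. Boxes span the quartiles with the median as a line, and whiskers reach the 5th and 95th percentiles. The TDN boxes are coloured, with medians of 1.28 to 1.53 and -0.78 to -0.72 in genes selected on these libraries, and injury replicates 1 and 2 lie farther from sham than TDN in both lists.

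These genes were also summed as a share of all counts in each library. The genes that rose held 2.15, 2.31 and 2.48% of the counts of the sham libraries and 4.81, 4.58 and 4.81% of those of the TDN libraries. In injury they held 8.70, 6.46 and 6.22%, and in rapamycin 7.65, 8.87 and 5.74%. All TDN libraries therefore lay above sham, as the choice of the genes requires, and below all injury and rapamycin libraries. In injury replicate 3, 1 gene held 19.8% of the counts of the genes that rose. The largest held 8.31 and 10.8% in injury replicates 1 and 2, and 9.21 to 10.2% in TDN. The genes that fell held 2.76, 2.99 and 2.89% in sham and 1.59, 1.78 and 1.75% in TDN. Their share was 0.765, 1.10 and 1.85% in injury and 0.945, 0.884 and 1.34% in rapamycin, so that injury replicate 3 was above all TDN libraries.

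Gene by gene, untreated injury tended to lie beyond TDN. Its mean was above the TDN mean for 428 of the 617 genes that rose, or 69.4%, beside 47% of all tested genes. It was below the TDN mean for 335 of the 376 genes that fell, or 89.1%, beside 53% of all tested genes. With injury libraries taken singly, replicates 1 to 3 were above the TDN mean for 71.6, 59.6 and 55.1% of the genes that rose. They were below it for 91.0, 84.0 and 45.7% of the genes that fell, so the count for the latter reversed in replicate 3. For rapamycin the means lay beyond TDN for 62.1% of the genes that rose and 86.7% of those that fell.

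Without overlap between libraries, all 3 TDN libraries were below all 3 injury libraries for 109 of the genes that rose (17.7%), against 9.15% of all tested genes. They were above all 3 for 30 (4.86%), against 10.5% of all tested genes. Of the genes that fell, 88 (23.4%) were above all injury libraries in TDN, against 10.5% of all tested genes. Another 6 (1.6%) were below, against 9.15% of all tested genes. Against rapamycin, TDN was lower without overlap for 199 of the genes that rose (32.3%, beside 17.4% of all tested genes). TDN was higher for 63 of them (10.2%, beside 21.8%). Of the genes that fell, TDN was higher for 229 (60.9%, beside 21.8%) and lower for 4 (1.06%, beside 17.4%).

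In the test of TDN against injury no gene passed. Of the 617 genes that rose against sham, edgeR over all 12 libraries called 0, and 8 were higher and 70 lower than injury at p under 0.05 before adjustment. Of the 376 that fell, it also called 0, and 22 were higher and 2 lower before adjustment. The smallest adjusted p was 0.649 in both lists. Over all 17521 genes in this fit, 294 (1.68%) were higher and 780 (4.45%) lower on the same measure. When each group was given its own spread (limma voom with a weight per group), 0 genes passed as well (smallest adjusted p = 0.0555), and 1732 higher and 1411 lower genes had p under 0.05 before adjustment. That fit was added after the data were seen.

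A large difference in means did not always come with a call. At least 4-fold differences were found for 413 genes higher and 139 genes lower in TDN. Of these, 207 (50.1%) and 9 (6.47%) were called. The 130 genes that were at least 4-fold lower but not called varied strongly within both groups, with a median SD of log2 CPM of 2.49 in sham and 1.61 in TDN, against 0.341 and 0.297 for the 9 that were called. Sham and TDN libraries overlapped for 97 of the 130. For the other 33 they did not, beside 17.4% of all tested genes in that direction.

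Among these 130 genes, which were picked for a large difference without a call, 1 library in each group differed from the others. Relative to the sham mean, the 130 genes had medians of 1.55, 0.99 and -2.69 in sham replicates 1 to 3 and of -3.34, -3.28 and -0.58 in TDN replicates 1 to 3. Sham replicate 3 was thus near the low TDN libraries for these genes, and TDN replicate 3, the highest TDN library for 107 of them, was near the sham mean. The 206 genes that were at least 4-fold higher but not called had a median level of 0.411 CPM in sham, and sham replicate 3 was the highest sham library for 146 of them. Sham and TDN libraries did not overlap for 185 of the 206, beside 15.9% of all tested genes in that direction. These 206 were picked for a large difference in the same libraries. Their TDN medians were alike at 3.53, 3.15 and 3.19. Over all genes, TDN replicate 1 differed most from the others by chi-square per degree of freedom. The value was 108 and 121 against replicates 2 and 3, and 55.3 between those. The sample quality weight of TDN replicate 1 in limma voom was 0.63, against 1.4 and 1 for replicates 2 and 3. Spearman correlations across genes were 0.975 between sham replicates 1 and 3, 0.983 between 2 and 3 and 0.989 between 1 and 2. Among the TDN libraries they were 0.987 between replicates 1 and 2, 0.986 between 2 and 3 and 0.984 between 1 and 3. By these correlations TDN replicate 1 was not set apart. Without sham replicate 3, edgeR called 582 genes higher, of which 383 were among the 617, and 227 lower, of which 155 were among the 376. Whether tissue composition moved with these libraries was not tested.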

How the data were processed

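Poly(A)-enriched RNA from urethral tissue was sequenced on an Illumina platform, per the labels' protocols and the design text. The authors deposited raw counts per gene, with no normalization. The build is Rnor 6.0, per the submitters' processing notes. The sources used here do not give the aligner, counter, annotation or strand setting, and reads of near-identical, overlapping or antisense genes could not be told apart. The table had 15 library columns, and 3 that match no labelled sample were not used.

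Genes were tested with edgeR 4.0.16 (R 4.3.3; quasi-likelihood test, TMM scaling, default filter by group) on the sham and TDN libraries. This fit had 4 residual degrees of freedom and a common biological coefficient of variation of 0.246 (0.504 over 12 libraries). It left out 15729 genes. TDN against injury was fitted over all 12 libraries. Calls need a Benjamini-Hochberg adjusted p under 0.05. Standard errors are the absolute log2 fold change over the square root of F. CPM use library size and TMM factors over 12 libraries, and log2 CPM a prior count of 2. Scripts were tested on simulated data. Floors of 3 counts cover counting error only. Replicates of a group differed by more than sampling noise (chi-square per degree of freedom of 55.3 to 121).

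The rule for naming was an adjusted p under 0.05, at least 5 CPM in the higher group and no overlap, then the 2 largest fold changes in each direction, since symbols were lacking. Gene lists and cell type markers written by symbol were not evaluated. The gene table used for names, with 47357 genes of assembly GRCr8, held no Ensembl IDs, so 0 IDs could be matched. The groups, the fit of 6 libraries, lists and rules were chosen with earlier results of these data known, among them that the fit of 12 libraries called 0 genes. Alternatives covered DESeq2 1.42.0, limma 3.58.1, other scalings and filters, a replicate block and leaving out libraries.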

Additional observations from a re-analysis of the deposited data

How the results depend on the processing

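The counts of genes between TDN and sham depended on the setting, and the cause was not tested. With 617 higher and 376 lower as reported, all 12 libraries gave 0 and 0, and 9 libraries without rapamycin 10 and 0. DESeq2 gave 1521 and 1256, and limma voom with sample quality weights 951 and 622. No filter on low counts gave 406 and 241, and a minimum log2 fold change of 1 gave 25 and 0. limma voom with a weight per group over all 12 libraries, added after seeing the data, gave 906 and 665, of which 500 and 282 were among the reported genes. Leaving out 1 library gave 11 to 582 higher and 2 to 227 lower. RLE, upper quartile and total count scaling, limma voom and a filter at 1 CPM in 3 libraries stayed within 1.5 times the reported counts.

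Deviations of same-numbered sham and TDN libraries had correlations of -0.111, -0.0735 and -0.278, and no library correlated best with its own number. These values cannot show whether the numbers pair libraries, since deviations from a group mean of 3 are not independent. The replicate block gave 306 higher and 131 lower.

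Over 19 alternatives the log2 fold change between TDN and sham ran from 6.75 to 7.56 for ENSRNOG00000002548 (edgeR, DESeq2 or limma adjusted p = 2.4e-15 to 0.127), from 6.35 to 7.29 for ENSRNOG00000019050 (5.96e-41 to 0.414), from -2.33 to -2.04 for ENSRNOG00000017686 (1.18e-16 to 0.974) and from -2.23 to -1.94 for ENSRNOG00000025005 (1.82e-21 to 0.428). Between TDN and injury no gene was called in 9 alternatives added after seeing the data. There the log2 difference of ENSRNOG00000017686 was -0.10 with injury replicate 1 left out, -0.09 with injury replicate 2 left out, and at most 3.35. Depth limits genes near 3 counts per library.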
